A study of Mus musculus with 8 samples.

Results

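The ephrins and their Eph receptors were followed in mouse colonic epithelial cells given sodium butyrate, a fatty acid made by gut bacteria and an inhibitor of histone deacetylases. The set holds 10 genes of the 12393 genes that the array measures with a probe set naming 1 gene. It has 6 ligands (Efna1, Efna3, Efna4, Efna5, Efnb1 and Efnb2) and 4 receptors (Epha1, Epha2, Ephb3 and Ephb4), read by 18 probe sets. The genes were taken by family name, and they were chosen by their signals and changes over these same arrays, with results against 0 h already known. Their levels and changes are therefore given as a description, and a call printed for one of them is no independent support.

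Every array was made from MCE301 cells, 1 line of mouse colonic epithelium whose donor mice carried the large T-antigen of simian virus 40 in a temperature-sensitive form. All groups carry this transgene, and they differ in how long the cells had 2 mM sodium butyrate: 0 h (the control), 6 h, 12 h or 24 h, with 2 arrays at each time and 8 in all. No cells without butyrate at 6, 12 or 24 h were analysed here, so time in culture and butyrate cannot be told apart. Whether both arrays of a time are separate cultures is not in the labels, so the p-values speak only of the spread among these 8 arrays, and that spread may be technical. In a bulk RNA sample, fewer cells making a transcript and less of it per cell cannot be told apart.

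Ephrins are ligands that stay on the cell surface: those of the A class are held by a lipid anchor, and those of the B class cross the membrane. Eph receptors are tyrosine kinases on the neighbouring cell, so signals run into both cells at a contact (forward through the receptor, reverse through the ephrin), and the usual outcome is repulsion or sorting of cells. In the intestine, EphB receptors are targets of Wnt signalling, are high at the crypt base and, with ephrin-B ligands on differentiated cells, keep cells in their places along the crypt.

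Values are linear intensities, here called signals, that the deposited table gives for each probe set. Probe sets differ in how well they bind, so signals were compared between times and never between genes. Changes are differences of log2(signal + 32) with the standard error of a limma fit over all genes, and this scale understates changes of low signals. A gene was tested when at least 2 arrays had a signal above 144.7, the median of all values, and it was represented by its brightest such probe set. "Rose" and "fell" are kept for a Benjamini-Hochberg adjusted p under 0.05 over the 7340 genes tested, and for the ephrin and Eph genes these words describe the values that chose them.

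All arrays had a trimmed mean signal of 500.2, so they had been scaled to 1 level, and the 2 arrays of a time correlated at r = 0.979 to 0.982 across probe sets. Epithelial markers were present: 11 of 12, among them keratins, Cdh1 and Epcam, were above 144.7 on every array, with a summed signal of 76136.2 to 84595.6 at 0 h and 93380.2 to 109650 at 24 h. Vil1, the brush border protein villin, was the exception, with signals of 2.8 to 40.7. Of 10 colonocyte markers, 3 were above that level on every array (Car2, Krt20 and Cdx2) and the other 7 on none. The summed signal of that list, 6896 to 7275.3 at 0 h and 16880.4 to 22512.8 at 24 h, was carried by Krt20, which rose from a mean of 1377 to 15293, while Cdx2 fell and Car2 was at 4963 and 3824. Endothelial markers, of which 0 of 10 reached it on any array, summed to 228.6 to 234.5 at 0 h and 380.1 to 402.4 at 24 h. Of the fibroblast list 9 of 10 genes, and of the neuron and glia list 6 of 7 on the array, stayed below it on every array. Fibroblast markers summed to 324.6 to 431.3 at 0 h and 692.6 to 736.9 at 24 h, with Vim alone going from a mean of 7.5 to 316.1 (called higher), and those of neurons and glia summed to 236.9 to 308.5 and 417 to 419.7. Vim passed the filter only through its 24 h arrays, the only ones on which its signal was above 144.7. Of 7 immune markers on the array, 2 (Cd68 and Csf1r) were above it on every array, and they moved in opposite directions: by 24 h Cd68 rose from a mean of 424.4 to 1080.1 and Csf1r fell from 733.6 to 231.2. The immune sum was 1172.5 to 1507.9 at 0 h and 1528.8 to 1546 at 24 h. The part of these marker levels in any ephrin or Eph value was not tested.

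Of the 10 genes, 9 passed the filter and 1, Efna5, did not. At 6 h, 3 of the 9 rose (Efna3, Epha1 and Ephb3), against 9.06% of all genes tested, and 1 fell (Efna1), against 6.68%. The same 3 rose and the same 1 fell at 12 h, where 18.1% of all genes rose and 17.5% fell, and at 24 h, where 24.6% rose and 23.5% fell. These comparisons share the 2 arrays at 0 h, and the contrast was used in choosing the genes, so nothing is read from the counts. The median log2 change of the 9 was 0.32 at 6 h, 0.19 at 12 h and -0.02 at 24 h, beside 0.01, 0.03 and 0.04 over all genes tested.

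**Figure D1:**
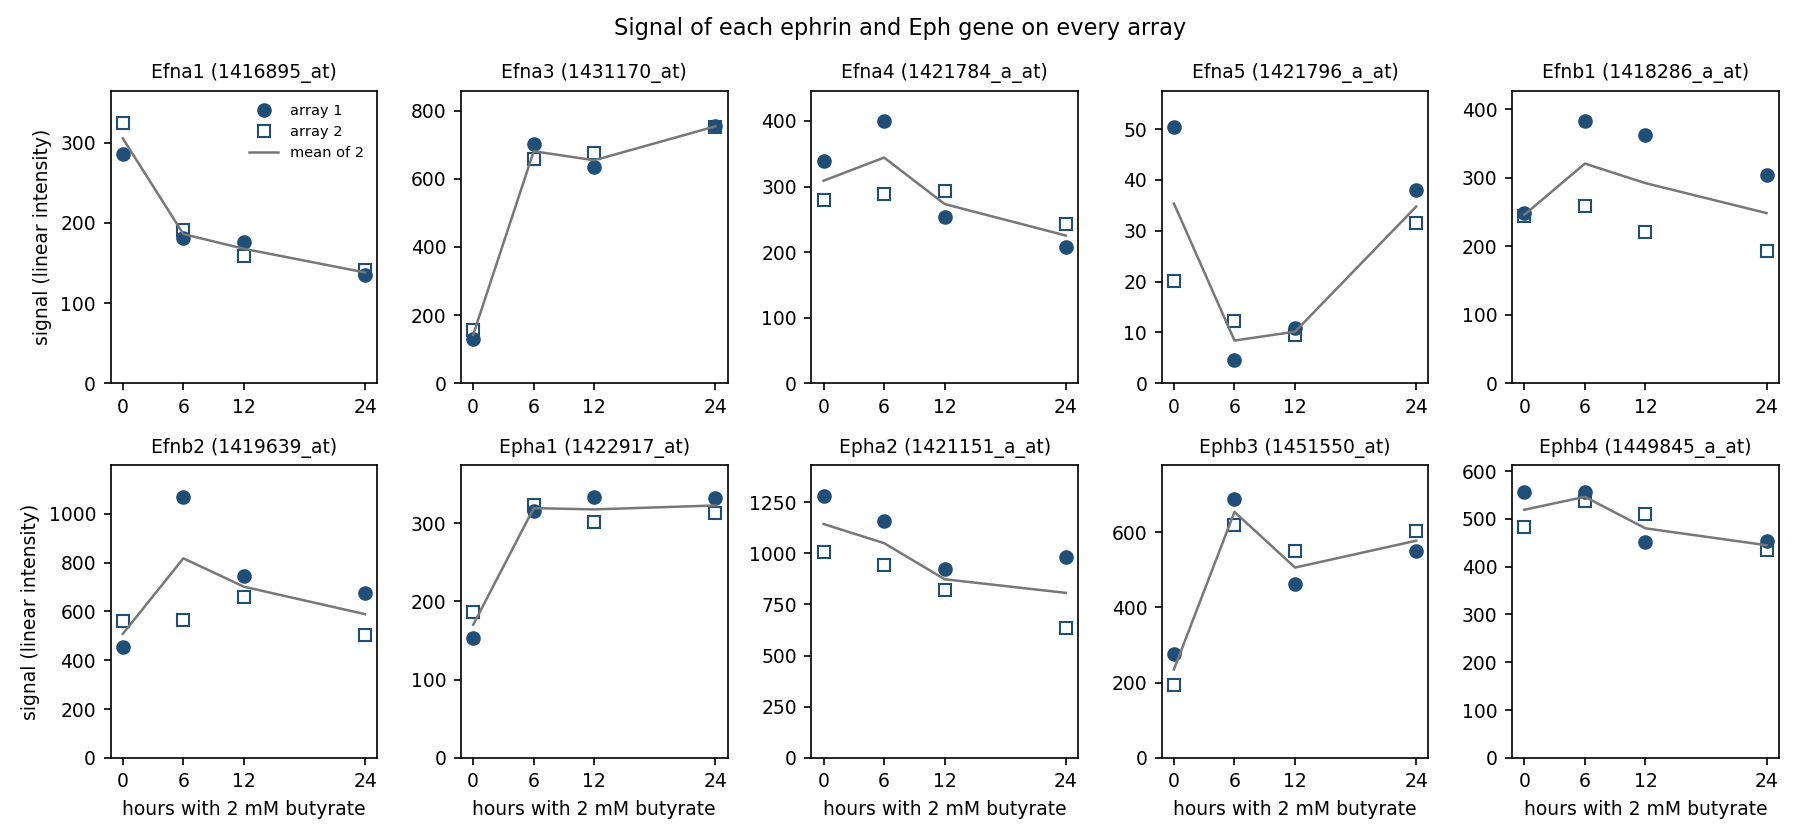
Signal (linear intensity, vertical axes starting at 0) of the ephrin and Eph genes on each of the 8 arrays against hours with 2 mM butyrate, 1 panel per gene with the probe set used; points are arrays and lines join the means of 2 arrays. Efna3 lies at 129.4 and 154.8 at 0 h and between 634.5 and 756.1 on all later arrays, while Efna1 lies highest at 0 h (285.8 and 325.2).

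Efna3, a lipid-anchored ligand of EphA receptors, had the widest change of the family. Its signal (probe set 1431170_at) was 129.4 and 154.8 on the 2 arrays at 0 h, 703.1 and 658.4 at 6 h, 634.5 and 674.2 at 12 h, and 756.1 and 751.5 at 24 h. Every later array was over 4 times the 0 h values, and no later array overlapped them. On the log2 scale it rose by 2.04 ± 0.15 at 6 h (4.10-fold), 1.98 ± 0.15 at 12 h (3.95-fold) and 2.18 ± 0.15 at 24 h (4.53-fold). Among the 7340 genes it stood at rank 10 by rise at 6 h, at rank 54 at 12 h and at rank 77 at 24 h, since other genes went on to rise while Efna3 stayed near its 6 h level.

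Efna1, another ligand of EphA receptors, went the other way. Probe set 1416895_at read 285.8 and 325.2 at 0 h, 181.4 and 190.7 at 6 h, 176.2 and 159.2 at 12 h, and 135 and 141.4 at 24 h. The 0 h arrays were the highest and the 24 h arrays the lowest, with no overlap between either pair and the rest. Efna1 fell by 0.63 on the log2 scale at 6 h (SE 0.15), by 0.76 at 12 h and by 0.99 at 24 h, which is 1.98-fold between 0 h and 24 h. The 24 h signals were themselves under 144.7, so the lower end of this fall is near the level where signals carry less information. The 6 h call was lost without a filter on low signals (limma, adjusted p = 0.0761) and when any 1 of the 4 arrays compared was left out (adjusted p = 0.0587 to 0.126), while the calls at 12 h and 24 h were kept there. A second Efna1 probe set, 1448510_at, read 269.2 and 332.6 at 0 h, 138.8 and 166.3 at 6 h, 128.2 and 178.6 at 12 h, and 104.3 and 115.1 at 24 h. It moved the same way, with log2 changes of -0.85, -0.85 and -1.23.

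Efna4, the remaining A-class ligand that was tested, showed no change past the threshold. Its signals (1421784_a_at) were 338.2 and 279.4 at 0 h, 399.6 and 288.6 at 6 h, 253.9 and 292.6 at 12 h, and 207.4 and 243.1 at 24 h. The 24 h arrays lay below both 0 h arrays, and the 6 h and 12 h arrays overlapped them. The log2 change at 24 h was -0.40 ± 0.19, with a 95% interval of -0.83 to 0.02. Efna5, a ligand best known from axon guidance, read 50.5 and 20.2 at 0 h, 4.6 and 12.2 at 6 h, 10.9 and 9.4 at 12 h, and 38 and 31.5 at 24 h (1421796_a_at). These signals are too low for a change to be read from them.

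Efna1, Efna3 and Efna4 are neighbours on chromosome 3, and in the RefSeq gene order of assembly GRCm38.p6 no other protein-coding gene lies between them. Position was not used in choosing the genes. Windows of 250 bases upstream of the RefSeq start sites are printed for Efna1 and Efna3, because these adjacent genes moved in opposite directions, and for Epha1 and Ephb3, the other genes that rose. Each is read 5′ to 3′ on the gene's strand from GRCm38.p6, at chr3:89280952-89281201 (minus strand) and chr3:89279646-89279895 (minus) for the first and second starts of Efna1, chr3:89322940-89323189 (minus) and chr3:89321769-89322018 (minus) for those of Efna3, chr6:42373269-42373518 (minus) for Epha1 and chr16:21204545-21204794 (plus) for Ephb3. Capitals mark the GC box, GGGCGG on either strand.
Efna1 start 1: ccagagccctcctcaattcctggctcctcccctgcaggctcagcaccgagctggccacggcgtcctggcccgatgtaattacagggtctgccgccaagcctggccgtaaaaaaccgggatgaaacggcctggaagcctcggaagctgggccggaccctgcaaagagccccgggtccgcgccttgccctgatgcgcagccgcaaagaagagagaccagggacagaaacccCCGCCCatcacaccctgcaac
Efna1 start 2: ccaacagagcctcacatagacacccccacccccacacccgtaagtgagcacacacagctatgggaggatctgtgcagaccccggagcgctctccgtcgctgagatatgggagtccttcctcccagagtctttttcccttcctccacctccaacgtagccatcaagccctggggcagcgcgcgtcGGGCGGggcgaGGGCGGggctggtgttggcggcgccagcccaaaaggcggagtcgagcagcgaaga
Efna3 start 1: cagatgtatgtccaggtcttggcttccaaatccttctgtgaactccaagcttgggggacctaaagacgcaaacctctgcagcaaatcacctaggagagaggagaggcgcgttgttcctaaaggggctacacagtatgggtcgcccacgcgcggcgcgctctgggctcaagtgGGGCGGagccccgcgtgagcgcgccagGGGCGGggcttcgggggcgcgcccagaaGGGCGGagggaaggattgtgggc
Efna3 start 2: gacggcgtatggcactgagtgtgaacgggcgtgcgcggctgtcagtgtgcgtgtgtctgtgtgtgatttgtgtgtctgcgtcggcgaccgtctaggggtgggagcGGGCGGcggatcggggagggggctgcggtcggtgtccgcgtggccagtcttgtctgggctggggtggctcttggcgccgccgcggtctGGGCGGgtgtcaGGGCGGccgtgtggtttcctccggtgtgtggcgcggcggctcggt
Epha1: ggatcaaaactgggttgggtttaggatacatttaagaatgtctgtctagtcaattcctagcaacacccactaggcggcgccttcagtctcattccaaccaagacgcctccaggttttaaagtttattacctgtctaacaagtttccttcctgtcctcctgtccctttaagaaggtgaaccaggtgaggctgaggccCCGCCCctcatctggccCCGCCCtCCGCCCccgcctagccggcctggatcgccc
Ephb3: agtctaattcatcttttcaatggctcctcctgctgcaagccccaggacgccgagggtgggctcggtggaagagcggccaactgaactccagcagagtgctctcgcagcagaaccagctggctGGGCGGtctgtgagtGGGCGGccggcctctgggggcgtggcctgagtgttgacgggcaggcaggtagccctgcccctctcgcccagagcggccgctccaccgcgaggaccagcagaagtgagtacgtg

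All 10 genes matched a RefSeq start, with 12 windows in all. The GC box, the short element bound by Sp1-type factors, was in 10 of the 12, and in 32.7% of the 32851 promoters of the same length. The windows of Efna4 and Efnb1 were those without it. CCAAT (either strand) was in 4 of the 12 windows and 33.8% of all promoters, TATAAA in 1 and 12.4%, and the TCF core CTTTGA in 1 and 13.8%. The AP-1 element TGANTCA and the E-box CACGTG were in 0 of the 12, against 6.75% and 6.02%. The hypoxia element cores ACGTG and GCGTG were in 1 and 6 windows, against 16.6% and 28.2%; ACGTG lies within CACGTG. The windows of the family were rich in G and C, at 54.4% to 74.8% with 7 to 32 CpG, where the medians over all promoters were 52.4% and 6. A match is a description of letters, and Efna1, which fell, and Efna3, which rose, both carry the GC box at both starts.

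The genes around the 3 ephrin-A genes were looked at in the same fit, 10 protein-coding genes on either side. Of these 20 genes, 15 were on the array and 11 were tested. At 6 h 0 of the 11 rose and 0 fell, where 9.06% of all genes tested rose and 6.68% fell. At 12 h 1 rose and 2 fell (18.1% and 17.5% of all genes), and at 24 h 2 rose and 2 fell (24.6% and 23.5%). With 11 genes, nothing is read from these counts. The median log2 changes were 0.04, 0.08 and 0.32, beside 0.01, 0.03 and 0.04 over all genes tested. Cks1b, a small subunit of cyclin-dependent kinase complexes, fell by 0.49 at 12 h and by 1.56 ± 0.16 at 24 h, from a mean signal of 7688 ± 9.48 (SD, n = 2) to 2585 ± 91.9. Mtx1, of the mitochondrial import machinery, fell by 0.46 and 0.71. Shc1, an adaptor of receptor tyrosine kinases, rose by 0.63 at 12 h only. At 24 h Flad1, which makes the cofactor FAD, rose by 0.66, and Slc50a1, a sugar transporter that lies directly beside Efna1, rose by 0.59. Adam15, the metalloprotease gene directly beside Efna4, had a log2 change of 0.61 ± 0.24 at 24 h that missed the threshold (limma, adjusted p = 0.0583). With the replicate number as a block, 4 neighbours rose at 24 h in place of 2. The 12 h calls of Cks1b and Mtx1 were lost without any 1 of the 4 arrays compared (adjusted p = 0.0504 to 0.205), and that of Shc1 without the first 0 h array or either 12 h array (up to 0.0627). The 24 h calls of Flad1 and Slc50a1 were lost without the second 0 h array or the first 24 h array (0.0511 to 0.183).

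**Figure D2:**
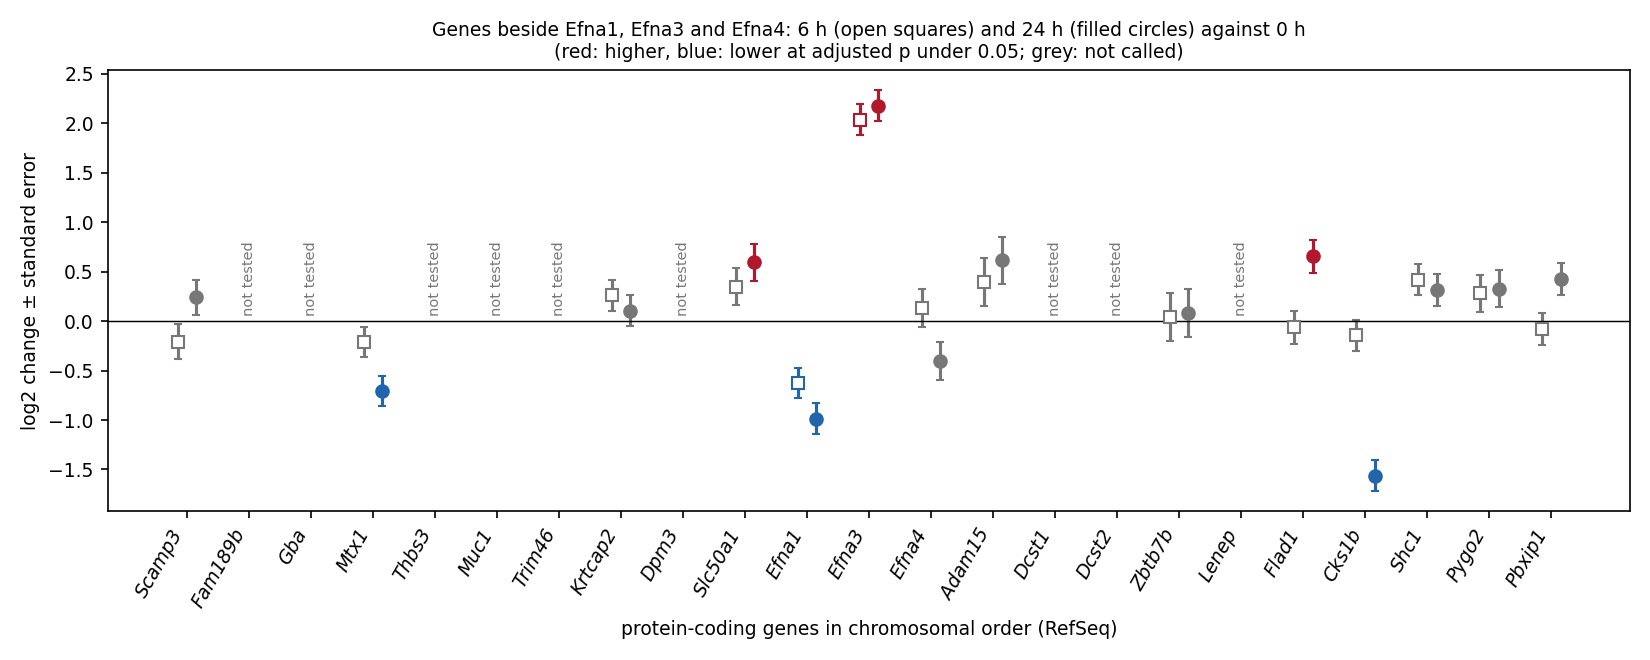
Log2 change against 0 h (vertical axis, with the standard error of the fit) of the tested genes beside Efna1, Efna3 and Efna4, in chromosomal order along the horizontal axis and evenly spaced; open squares are 6 h and filled circles 24 h, red marks higher, blue lower and grey not called. Efna3 stands at 2.04 and 2.18 between Efna1 at -0.63 and -0.99 and Efna4 at 0.13 and -0.40, and Cks1b is the lowest of the neighbours at -1.56 at 24 h.

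The B-class ligands gave signals that differed between probe sets or between the arrays of a time. Efnb2, the transmembrane ligand of EphB receptors and of EphA4, read 454 and 562.2 at 0 h, 1069 and 566.3 at 6 h, 744.1 and 658.3 at 12 h, and 675 and 502.6 at 24 h on its brightest probe set (1419639_at). One 6 h array was far above the rest and the other level with 0 h, and the log2 change there, 0.59 ± 0.27, missed the threshold (limma, adjusted p = 0.165). On probe set 1419638_at both 6 h arrays (588.5 and 527.7) and both 12 h arrays (513.1 and 421) were above the 0 h arrays (284 and 354.7), and the 24 h arrays (299.3 and 483.5) overlapped them. Its log2 change at 6 h was 0.75 (adjusted p = 0.0551 with every probe set tested on its own). With all kept probe sets of Efnb2 averaged, Efnb2 passed in limma at 6 h (0.70, adjusted p = 0.027) and at 12 h (0.55, adjusted p = 0.0377). Among those averaged, 1449548_at was kept only through 1 array at 6 h (170.8) and 1 at 12 h (174.8). The average is therefore no independent support for a rise. On 1419639_at the 6 h change was 1.03 without the second 6 h array, which left the far higher array alone, and 0.15 without the first. Probe set 1449548_at was at 110.6 and 57.3 at 0 h and 170.8 and 144.5 at 6 h, and 1449549_at, at 56 to 123.5 throughout, was too dim to be tested. Their log2 changes were 0.75, 0.68 and 0.13 for 1449548_at and 0.48, 0.52 and 0.44 for 1449549_at. Each Efnb2 probe set thus had changes above 0 at 6, 12 and 24 h, of differing size.

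Efnb1, the X-linked ephrin-B ligand, read 248.2 and 244 at 0 h, 382.6 and 259.2 at 6 h, 363 and 221.7 at 12 h, and 303.7 and 193.5 at 24 h (1418286_a_at). At each later time the first array was well above the second, and at 12 h and 24 h the pair lay on both sides of the 0 h values. The log2 changes were 0.32, 0.19 and -0.02, each with a standard error of 0.26. A second probe set, 1451591_a_at, was lower at 0 h (124.2 and 71.8) than on every later array (133.5 to 176.1), with log2 changes of 0.65, 0.54 and 0.55 that missed the threshold (limma with every probe set tested on its own, adjusted p = 0.0716, 0.0739 and 0.0544). Both 0 h signals of 1451591_a_at were below 144.7, so it passed the filter only through later arrays. At 24 h these 2 probe sets of Efnb1 thus stood at -0.02, which is within its standard error of 0, and at 0.55. The dim probe set 1418285_at stayed between 80.3 and 133.6.

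**Figure D3:**
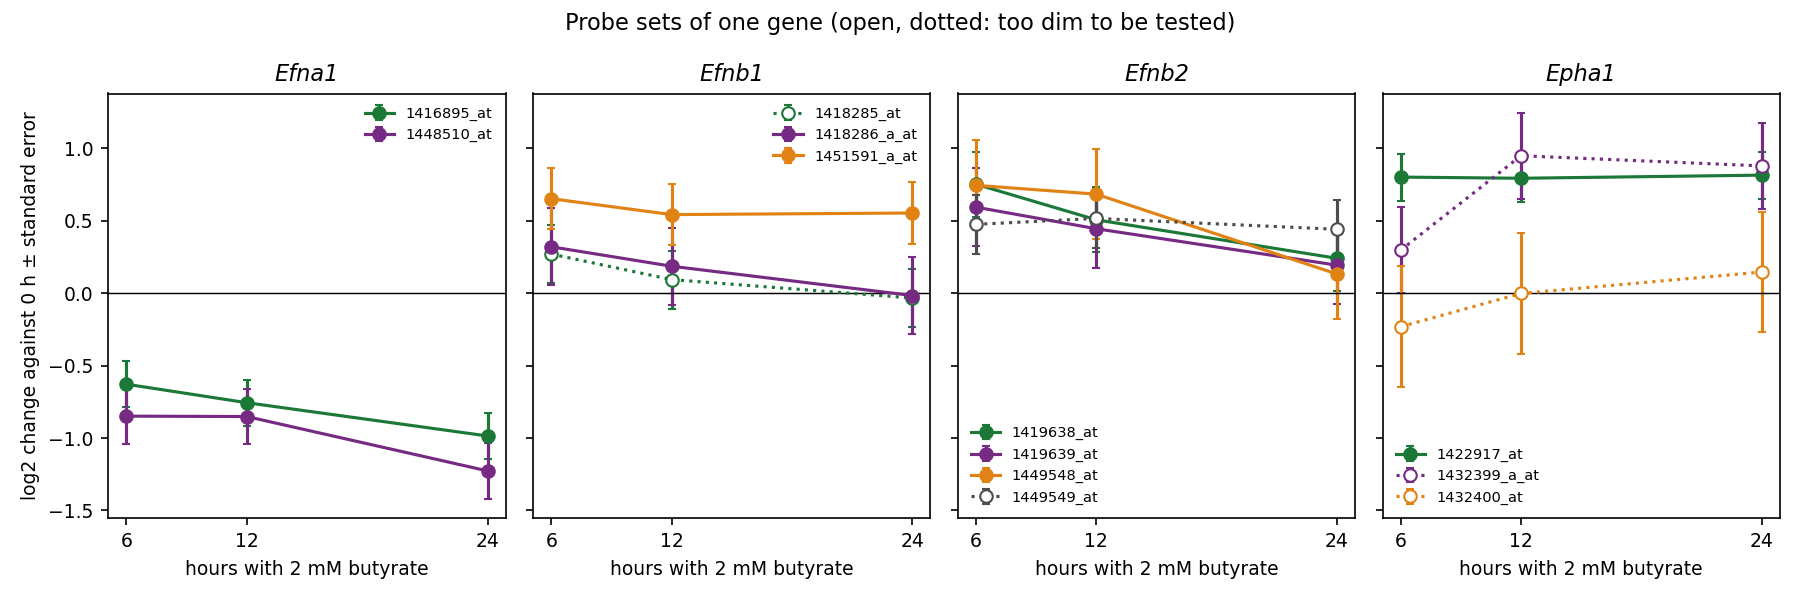
Log2 change against 0 h (vertical axis, with standard errors) at 6, 12 and 24 h for each probe set of the genes that have several; open symbols with dotted lines are probe sets too dim to be tested. Both probe sets of Efna1 are below 0 at each time. At 24 h the tested probe sets of Efnb1 stand at -0.02 and 0.55, and the dim 1418285_at at -0.03.

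Of the receptors, Ephb3 had the widest change. It is a B-class receptor and Wnt target that keeps Paneth cells at the crypt base. Probe set 1451550_at read 275 and 194.7 at 0 h, 688.4 and 618.7 at 6 h, 462.5 and 548.7 at 12 h, and 550.9 and 603 at 24 h. Both 0 h arrays were below all 6 later ones, and the 6 h arrays were the highest. Ephb3 rose by 1.38 ± 0.19 at 6 h (2.60-fold), 1.02 ± 0.19 at 12 h (2.03-fold) and 1.21 ± 0.19 at 24 h (2.31-fold). Ephb4, the receptor for ephrin-B2 known from veins and also made by epithelia, read 555.6 and 482.7 at 0 h, 555.4 and 537.1 at 6 h, 450.9 and 509.7 at 12 h, and 454 and 435.9 at 24 h (1449845_a_at). Its 24 h arrays were the only pair below both 0 h arrays. The log2 change at 24 h was -0.21 ± 0.16 with a 95% interval of -0.55 to 0.14.

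Epha1, an epithelial receptor of A-class ephrins, read 153.1 and 186.9 at 0 h, 315.3 and 322.9 at 6 h, 333.9 and 301.1 at 12 h, and 332.4 and 312.6 at 24 h (1422917_at). The 6 later arrays lay within 301.1 to 333.9, all above both 0 h arrays. Epha1 rose by 0.80 ± 0.16 at 6 h (1.74-fold), 0.79 ± 0.16 at 12 h and 0.82 ± 0.16 at 24 h (1.76-fold). Without the first 0 h array the 6 h call was lost (limma, adjusted p = 0.0696). The other Epha1 probe sets were too dim to be tested, with signals of 38.7 to 148.5 for 1432399_a_at and 9.2 to 79.6 for 1432400_at.

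Epha2, the A-class receptor widely made by epithelial and carcinoma cells, and a main partner of ephrin-A1, read 1279.5 and 1006.6 at 0 h, 1155.6 and 943.3 at 6 h, 925 and 821 at 12 h, and 980.2 and 632.7 at 24 h (1421151_a_at). The first array was above the second at all 4 times. The 12 h and 24 h arrays were below both 0 h arrays. The log2 changes were -0.12 ± 0.22, -0.37 ± 0.22 and -0.51 ± 0.22, and the change at 24 h missed the threshold (limma, adjusted p = 0.0832). With the replicate number as a block, which compares arrays of the same number, Epha2 passed at 24 h (limma, adjusted p = 0.0181). Its 24 h change was -0.81 without the first 24 h array, which left the lower array alone, and -0.21 without the second.

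**Figure D4:**
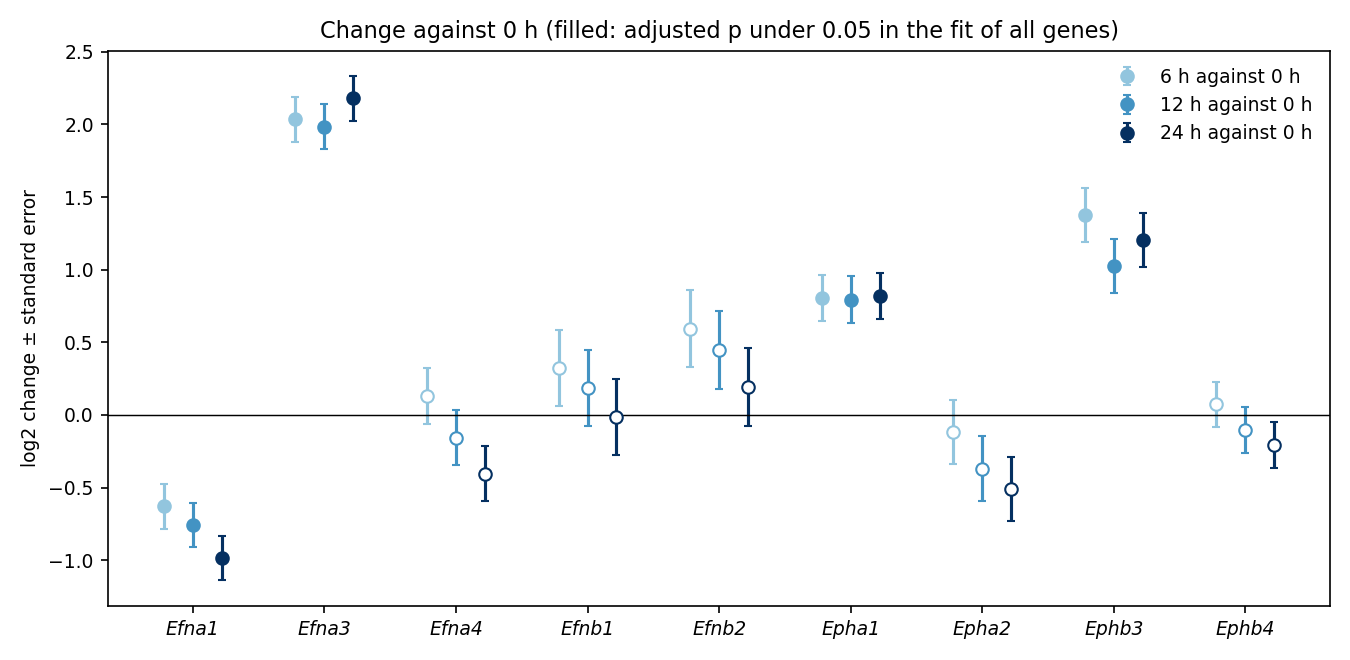
Log2 change against 0 h (vertical axis, with the standard error of the fit, n = 2 arrays a time) at 6, 12 and 24 h for the 9 tested ephrin and Eph genes; filled symbols have an adjusted p under 0.05 in the fit of all genes. Efna3, Ephb3 and Epha1 stand above 0 at all 3 times and Efna1 below it, with the widest change at 2.18 for Efna3.

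After 6 h the family showed no step past the threshold. Between 6 h and 12 h, 0 of the 9 genes rose and 0 fell, where 2.03% of all genes rose and 2.14% fell. Between 12 h and 24 h the counts were again 0 and 0, where 1.81% rose and 3.58% fell. At an unadjusted p under 0.05 the count in limma was 0 in both steps. The log2 changes ran from -0.35 to -0.01 in the first step and from -0.25 to 0.20 in the second. An adjusted p that misses the threshold does not show that levels stayed equal.

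Of 12 other genes of the family, 9 had a probe set naming them alone, and 1 of the 9, Epha4, was bright enough to be tested. Epha4, a receptor that binds both ephrin classes, read 418.5 and 372.7 at 0 h, 283 and 331.5 at 6 h, 381 and 258.1 at 12 h, and 384.6 and 264.5 at 24 h. The 6 h pair was below the 0 h pair, and the 12 h and 24 h pairs overlapped it. Its log2 changes of -0.34, -0.30 and -0.28 on this probe set, 1421928_at, missed the threshold (limma, adjusted p = 0.349, 0.314 and 0.322). A second Epha4 probe set, 1421929_at, moved the same way, with log2 changes of -0.57, -0.49 and -0.39. These also missed it (limma with every probe set tested on its own, adjusted p = 0.201, 0.184 and 0.26). The other 8 (Efna2, Efnb3, Epha3, Epha5, Epha6, Epha7, Epha8 and Ephb6) had 13 probe sets with signals of 0.5 to 100.1. Ephb1, Ephb2 and Epha10 were not analysed here.

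Eph receptors signal through adaptors, Src-family kinases and other effectors inside the cell. In this list 30 of 41 genes were tested, and these are not members of the family. At 6 h 3 rose and 2 fell, at 12 h 6 rose and 4 fell, and at 24 h 4 rose and 6 fell. Leaving out 1 array lowered several of these counts: at 6 h 1 rose without the second 0 h array or either 6 h array, at 12 h 3 rose without either 12 h array, and at 24 h 1 fell without the first 0 h array, 3 without the first 24 h array and 2 without the second. The medians were -0.06, -0.04 and 0.05, close to those of all genes. Over all genes tested, 9.06% rose and 6.68% fell at 6 h, 18.1% and 17.5% at 12 h, and 24.6% and 23.5% at 24 h. These shares also stand beside the counts of the lists below. Src, the kinase that Eph receptors engage, fell from a mean signal of 513.4 ± 78.7 (SD, n = 2) to 202.6 ± 18.7 at 24 h, with log2 changes of -1.03, -1.39 and -1.21 (limma, adjusted p = 0.000374 at 24 h). Its relative Fyn rose by 0.76 at 12 h and 0.81 at 24 h, from 229.6 ± 15.6 to 426.5 ± 25.3. Grb7, an adaptor that binds activated Eph receptors, fell by 1.25 at 6 h, 1.09 at 12 h and 0.78 at 24 h. Inppl1, the lipid phosphatase SHIP2 that binds Epha2, fell by 1.04 at 12 h and 0.83 at 24 h. Stat3 rose by 1.01, 0.99 and 0.99, from 973.8 ± 1.56 to 1974 ± 117 at 24 h. Itsn1, an exchange factor for Cdc42 linked to EphB receptors, rose by 0.62 at 6 h and 0.68 at 12 h. The 6 h call of Itsn1 was lost without the second 0 h array or either 6 h array (adjusted p = 0.0778 to 0.27), and that of Inppl1 at 24 h without the first 0 h array or the second 24 h array (0.0514 and 0.0528).

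Ephrin-B ligands signal in reverse through PDZ proteins and adaptors, and 10 of 13 of these were tested. At 6 h 0 rose and 0 fell, and at 12 h and at 24 h 0 rose and 1 fell, with medians of -0.06, -0.06 and 0.12. The 1 gene was Mpdz, a scaffold with many PDZ domains, which fell by 0.69 at both times. Its call was lost at 12 h without the first 0 h array or the second 12 h array, and at 24 h without the first 0 h array or the first 24 h array (limma, adjusted p = 0.119 to 0.191).

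Membrane proteases cut ephrins and Eph receptors and so end contacts, and 11 of 19 were tested. At 6 h 0 rose and 2 fell, at 12 h 3 rose and 2 fell, and at 24 h 4 rose and 2 fell, with medians of -0.17, -0.17 and 0.09. Mmp14, the membrane metalloprotease that cuts EphA2, fell from 973.7 ± 155 (SD, n = 2) to 237.2 ± 66 at 24 h, with log2 changes of -1.51, -2.29 and -1.91 (limma, adjusted p = 7.53e-05 at 24 h). Adam12, which can shed ephrin-A1, fell from 559.9 ± 5.87 to 121.3 ± 25.3, with changes of -0.69, -1.96 and -1.96. In the other direction, Adam8 rose by 1.12 at 12 h and 1.68 at 24 h, from 99.5 ± 19 to 386.4 ± 7.28 (adjusted p = 2.66e-05 at 24 h). Adam17 rose by 0.92 at 12 h and 0.95 at 24 h, and Adam9 by 0.74 at 12 h and 1.09 at 24 h. Adam8 was below 144.7 at 0 h, so it passed the filter through its later arrays. The call of Adam12 at 6 h was lost without any 1 of the 4 arrays compared (adjusted p = 0.0541 to 0.156), which left 1 protease lower there. With the replicate number as a block, 1 protease rose at 6 h in place of 0.

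The Wnt and crypt genes that run with EphB receptors in the intestine were mostly dim, and 8 of 19 were tested. At 6 h 1 rose and 2 fell, at 12 h 1 rose and 4 fell, and at 24 h 1 rose and 3 fell, with medians of -0.10, -0.47 and -0.39. Ccnd1, the G1 cyclin, fell from 11291 ± 864 (SD, n = 2) to 815.9 ± 43.3 at 24 h, with log2 changes of -0.96, -2.92 and -3.74. Myc, like Ccnd1 and Ephb3 a Wnt target, fell by 1.13, 1.24 and 1.07. Cdx2, the intestinal transcription factor, fell by 0.67 at 12 h and 0.71 at 24 h, from 484.8 ± 38 to 284.3 ± 0.14 at 24 h. Cd44, a surface receptor for hyaluronan and also a Wnt target, rose by 0.57, 0.77 and 0.84. Among the genes named as Wnt targets, Ephb3 and Cd44 rose and Ccnd1 and Myc fell. Ephb3 was chosen by its changes, and Wnt signalling was not tested. With the replicate number as a block, 2 genes of the list rose at 12 h in place of 1, and 5 fell at 24 h in place of 3. The call of Cd44 at 6 h was lost without any 1 of the 4 arrays compared (limma, adjusted p = 0.0735 to 0.131). Without either 0 h array or the second 12 h array, 2 genes of the list fell at 12 h in place of 4, and without the second 0 h array 2 rose at 24 h. The call of Cdx2 was lost at 12 h without either 0 h array or the second 12 h array, and at 24 h without the first 0 h array or either 24 h array (0.0567 to 0.211).

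The other guidance families (semaphorins, plexins, neuropilins, slits, robos and netrins) had 19 of 46 genes tested. At 6 h 1 rose and 2 fell, at 12 h 3 rose and 3 fell, and at 24 h 5 rose and 4 fell, with medians of -0.0024, 0.14 and 0.09. Sema3c, a secreted semaphorin, fell from 1925 ± 88.5 (SD, n = 2) to 308.9 ± 56.4 at 24 h, with changes of -1.50 at 12 h and -2.53 at 24 h (limma, adjusted p = 5.76e-06 at 24 h). Sema3a, of the same class, fell by 0.76 at 6 h, 1.42 at 12 h and 1.26 at 24 h. The semaphorin receptor Plxna3 rose by 0.90 at 6 h, 1.28 at 12 h and 1.78 at 24 h. Both of its 0 h signals were below 144.7 (mean 114 ± 33.7), so Plxna3 passed the filter only through its later arrays. The receptor Plxnd1 and the membrane semaphorin Sema4f were called higher at 12 h and 24 h from 0 h signals as dim as those of Efna5. Plxnd1 was at 40.5 ± 2.47 at 0 h and 235.8 ± 7.57 at 24 h, and Sema4f at 34.4 ± 30.1 and 204.2 ± 135. Plxnd1 and Sema4f passed the filter only through their later arrays, and the size of their change depends on the pseudocount: at 24 h Plxnd1 was at 1.88 with 32 added, 2.15 with 16 and 1.52 with 64, and Sema4f at 1.78, 2.12 and 1.38. Nrp2, a co-receptor of semaphorins, fell by 0.94 at 6 h. At 6 h, Nrp2 was not called without the first 0 h array or either 6 h array (adjusted p = 0.0773 to 0.312), Plxna3 without the first 0 h array or the second 6 h array (0.171 and 0.203), and Sema3a without either 0 h array or the second 6 h array (0.0551 to 0.0726). At 24 h 3 genes of the list rose in place of 5 without the first 0 h array or the second 24 h array.

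**Figure D5:**
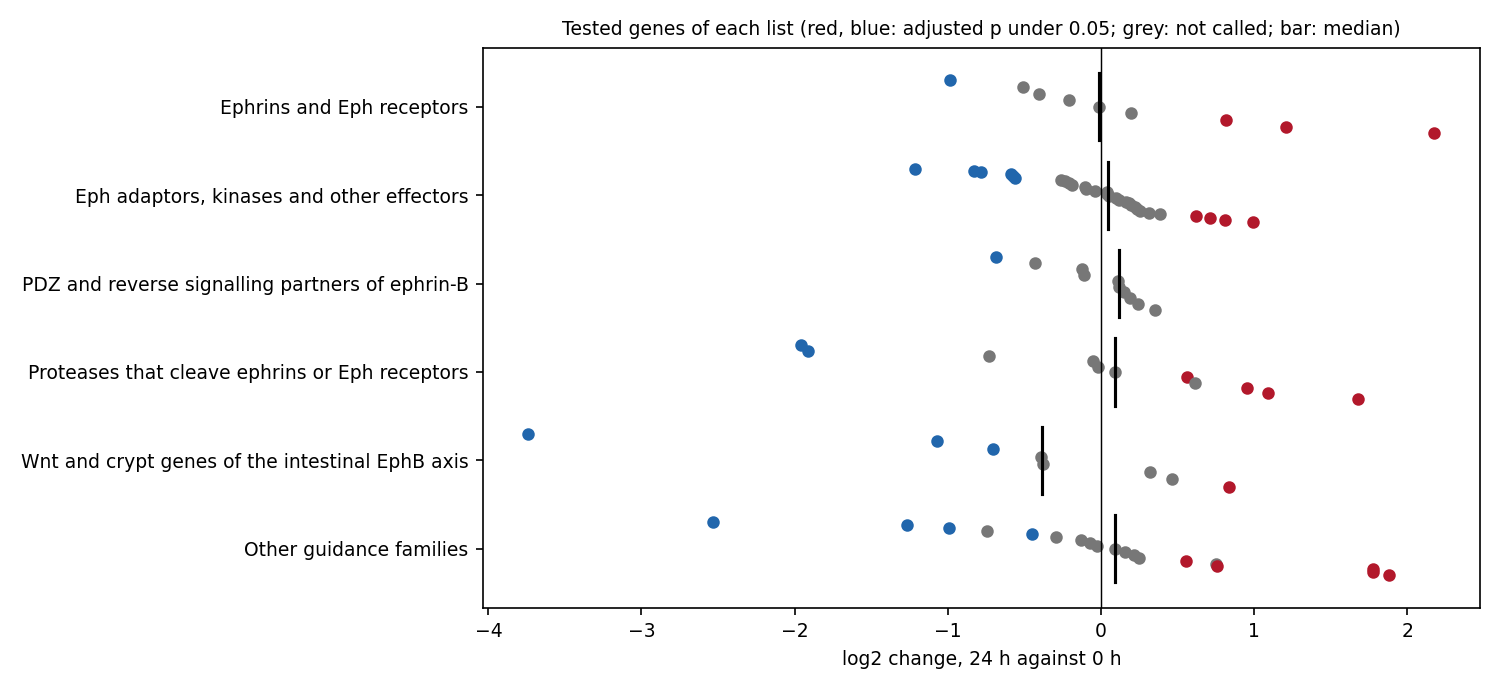
Log2 change at 24 h against 0 h (horizontal axis) of each tested gene in the ephrin and Eph family and in the lists around it; red and blue points have an adjusted p under 0.05, grey points do not, and the bar is the list's median. The family runs from -0.99 for Efna1 to 2.18 for Efna3, and every list but that of PDZ partners has called genes on both sides of 0.

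The genes whose 3 changes against 0 h lay nearest to those of Efna3 were sought among 7241 tested genes by Euclidean distance over the 3 log2 changes. They were Hey1, a transcription factor of the Notch pathway (distance 0.17; 2.00, 2.15 and 2.18), Fam117a (0.23), Fstl3, a secreted inhibitor of activins (0.28), Sgtb, a co-chaperone (0.34), and Atf3, a stress-induced transcription factor (0.38). Nearest to Efna1 were Map3k21, a kinase of the mixed-lineage group (distance 0.037; -0.63, -0.74 and -0.95), Gpr137b (0.067), Phc2, a Polycomb protein (0.068), Srsf1, a splicing factor (0.069), and Esco1, a cohesin acetyltransferase (0.073). The likeness is over 3 points that share their 0 h arrays and is given as a description.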

How the data were processed

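Per the labels, RNA carrying a phycoerythrin label was read on Affymetrix Mouse 430A arrays. The deposited values are linear intensities of 22690 probe sets, used as given; the software behind them is not stated in the sources used here. Of these, 64 were controls, 20380 named 1 gene in the platform annotation, 691 several and 1555 were not listed; 20351 were matched to RefSeq (GRCm38.p6) for names and gene order. No genome was used beyond RefSeq's promoter windows, whose part upstream of the start was read.

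Probe sets with at least 2 of 8 arrays above 144.7 were kept, with the brightest per gene. log2(intensity + 32) of all 8 arrays was fitted in limma 3.58.1 (R 4.3.3) with lmFit and eBayes (residual df 4, prior df 6.37), tested first on simulated data. The number of arrays, 2 per time, limits the precision; 21.2% to 26.4% of the values of an array were below 32.

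Replicate numbers come from the titles. The difference of the arrays numbered 1 and 2 correlated at r = 0.125 to 0.382 for all 6 pairs of times. Arrays of the same number may thus be paired, which rests on the data, since no label states it. The main fit left the replicate number out, and changes, standard errors and calls are from it unless an alternative is named. With the number as a block, 911 genes rose and 684 fell at 6 h, in place of 665 and 490.

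The members, gene lists and alternatives were chosen with earlier results of these data known. The genes named are all members and their probe sets, other family genes on the array, up to 4 called genes of largest change per list and comparison with 0 h, called neighbours of the ephrin-A genes, and the 5 genes nearest to the largest rise and fall, with predicted names passed over. Alternatives were the pseudocount, the filter, normalization, the probe set rule, the replicate block and leaving out each array; testing every probe set on its own was added after seeing the data.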

Additional observations from a re-analysis of the deposited data

How the results depend on the processing

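With 2 arrays a time, each result rests on few samples. Efna3 and Ephb3 kept their calls at 6, 12 and 24 h under every alternative that tested them. A stricter filter left Efna1 and Efna3 untested, so Efna3 was then not among the members called higher. Epha1 rose 1.74-fold, 1.73-fold and 1.76-fold at 6, 12 and 24 h, so it was not called higher at a 2-fold minimum. With the mean of probe sets, Efnb2 was called higher as well at 6 h and 12 h. The count of members called lower at 6 h went from 1 to 0 without a filter, under the stricter filter and at a 2-fold minimum, and was 0 in all 4 fits that left out 1 array. At 12 h and 24 h it went from 1 to 0 under the stricter filter and the 2-fold minimum. At 24 h it was 2 with the replicate block, where Epha2 joined Efna1, and ranged from 1 to 2 with 1 array left out; the paired fit changed no other call of a member, and its counts for the other lists are given beside them where they moved. With 1 array left out, called genes at 6 h numbered 1 to 2 higher and 2 to 3 lower among adaptors and kinases, 0 and 1 among proteases, 0 and 2 among Wnt and crypt genes, and 0 to 1 and 0 to 1 among other guidance genes. At 12 h they numbered 3 to 4 and 3 to 4, 2 to 3 and 2, 1 and 2 to 3, and 3 and 3 to 4 in the same order, with 0 and 0 to 1 among PDZ partners and 0 to 2 and 0 among neighbours of the ephrin-A genes. With the mean of probe sets 7 adaptors and kinases fell at 12 h, in place of 4. At 24 h, with 1 array left out, called genes numbered 3 to 4 higher and 1 to 4 lower among adaptors and kinases, 3 to 4 and 2 to 3 among proteases, 1 to 2 and 2 to 3 among Wnt and crypt genes, 3 to 6 and 3 to 4 among other guidance genes, 0 and 0 to 1 among PDZ partners, and 0 to 2 and 2 among neighbours of the ephrin-A genes. A stricter filter left 0 proteases lower at 12 h and 24 h, since Mmp14 and Adam12 were then not tested. The cause was not tested, beyond what the construction of each alternative shows.

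Reversed values were all of changes that missed the threshold: Efnb1 at 24 h was -0.02, 0.27 as the mean of its probe sets and 0.55 on 1451591_a_at alone, which was 0.011 from 12 h to 24 h, and Epha1 from 6 h to 12 h was -0.01, and 0.022 after quantile normalization. With 1 array left out, changes against 0 h ranged at 6 h from -0.083 to 0.35 for Efna4, from -0.29 to 0.051 for Epha2 and from -0.023 to 0.17 for Ephb4; at 12 h from -0.13 to 0.51 for Efnb1; and at 24 h from -0.30 to 0.27 for Efnb1 and from -0.0075 to 0.40 for Efnb2. From 6 h to 12 h they ranged from -0.45 to 0.18 for Efnb1, from -0.59 to 0.29 for Efnb2 and from -0.076 to 0.060 for Epha1, and from 12 h to 24 h from -0.52 to 0.12 for Efnb1, from -0.046 to 0.089 for Epha1 and from -0.44 to 0.16 for Epha2.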

Other observations

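Ephb6, a receptor of the family whose kinase domain is inactive, stayed too dim to be tested on every array but was higher at each later time. Its signals were 18.8 and 6.4 at 0 h, 30.9 and 35.7 at 6 h, 67.2 and 57.9 at 12 h, and 90.1 and 66.8 at 24 h, with no overlap between 0 h and the later arrays. In a limma fit of every probe set without a filter, added after seeing the data, its log2 changes were 0.56 at 6 h (adjusted p = 0.202), 1.10 at 12 h (adjusted p = 0.0143) and 1.31 ± 0.20 at 24 h (adjusted p = 0.00407). Ephb6 was singled out after its values were seen, and at signals of this height the size of the change depends on the pseudocount.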
